A study of Mus musculus with 10 samples.

Results

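H3K4me3 and H3K9me3 were compared as maps of promoters and of heterochromatin in retinal Glast+ cells of the C57BL/6 strain, taken at postnatal day 28. The 4 libraries of these marks, 2 experiments each (Exp1 and Exp2), were taken from the 10 libraries of the series by their antibody label. All groups share the same cells, strain and age, and no treatment or genotype is named. Glast, the glutamate transporter encoded by Slc1a3, is the surface protein used to isolate Müller glia, which span the retina and support its neurons. Whether Exp1 and Exp2 came from separate animals is not in the labels, and their spread may be technical. Of 21887 protein-coding genes, 316 carried both marks at the same gene end in both experiments. A gene end was marked when a called region, or island, reached within 1 kb of it.

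H3K4me3 is laid down at the starts of active genes and of many CpG-rich promoters that are not transcribed. H3K9me3 is the mark of constitutive heterochromatin, is read by HP1 proteins, and covers satellite and transposon repeats and clusters of tissue-restricted genes. The H3K9 methyltransferase Setdb1 is brought to chromatin by Trim28 and the KRAB zinc finger proteins, and the 3′ exons of zinc finger genes are known carriers of H3K9me3 in other cells.

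The promoters below show the range of sequence behind the comparison. Each is the 250 bases before the RefSeq transcription start (GRCm38.p6, the same coordinates as mm10), 5′ to 3′ on the gene's strand, with each CpG in capitals. Glul, the glutamine synthetase of Müller glia (chr1:153899679-153899928, plus strand), had H3K4me3 and no H3K9me3. Zfp110, a zinc finger gene (chr7:12834511-12834760, plus strand), Ndn, an imprinted gene (chr7:62348027-62348276, plus strand), Atoh7, the proneural factor of ganglion cells (chr10:63099535-63099784, plus strand), and Trim12a (chr7:104315496-104315745, minus strand) had both marks. Vmn1r100, a vomeronasal receptor (chr7:20417692-20417941, plus strand), had H3K9me3 alone.
Glul: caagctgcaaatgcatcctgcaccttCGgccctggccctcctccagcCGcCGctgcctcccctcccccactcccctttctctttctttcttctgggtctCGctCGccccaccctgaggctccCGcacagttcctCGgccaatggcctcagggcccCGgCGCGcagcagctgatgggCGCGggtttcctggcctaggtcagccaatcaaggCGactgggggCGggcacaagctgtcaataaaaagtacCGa
Zfp110: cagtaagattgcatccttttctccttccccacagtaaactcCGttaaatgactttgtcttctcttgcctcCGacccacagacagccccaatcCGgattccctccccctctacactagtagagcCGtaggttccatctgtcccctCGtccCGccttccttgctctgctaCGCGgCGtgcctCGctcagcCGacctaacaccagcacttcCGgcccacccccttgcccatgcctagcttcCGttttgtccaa
Ndn: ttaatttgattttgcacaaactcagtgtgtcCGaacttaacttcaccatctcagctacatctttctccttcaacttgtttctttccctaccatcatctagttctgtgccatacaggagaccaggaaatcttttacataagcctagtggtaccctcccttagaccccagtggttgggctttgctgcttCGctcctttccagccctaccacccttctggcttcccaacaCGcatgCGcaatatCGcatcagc
Atoh7: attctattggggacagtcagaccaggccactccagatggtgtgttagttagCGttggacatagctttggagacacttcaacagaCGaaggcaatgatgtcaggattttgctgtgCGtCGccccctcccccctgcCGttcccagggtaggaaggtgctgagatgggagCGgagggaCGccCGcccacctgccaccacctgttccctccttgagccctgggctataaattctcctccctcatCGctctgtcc
Trim12a: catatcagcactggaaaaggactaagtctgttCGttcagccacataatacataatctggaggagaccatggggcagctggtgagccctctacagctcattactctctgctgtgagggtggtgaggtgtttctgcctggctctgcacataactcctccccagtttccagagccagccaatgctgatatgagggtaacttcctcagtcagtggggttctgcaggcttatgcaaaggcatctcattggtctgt
Vmn1r100: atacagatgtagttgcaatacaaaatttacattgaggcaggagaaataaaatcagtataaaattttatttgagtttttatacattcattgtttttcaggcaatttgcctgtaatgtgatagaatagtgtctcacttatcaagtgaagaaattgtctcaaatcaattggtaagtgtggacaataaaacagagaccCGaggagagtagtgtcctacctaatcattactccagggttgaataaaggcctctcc
These windows held 15 CpG in Glul, 13 in Zfp110, 9 in Atoh7, 5 in Ndn, 1 in Trim12a and 1 in Vmn1r100. CG, which reads the same on both strands, occurred at least once in 92.7% of the 17492 promoters of protein-coding genes in the table, with a median of 10.

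The lists differ in kind. H3K4me3 had 16761 islands in Exp1 and 20169 in Exp2, with median widths of 3.2 and 2.4 kb, and H3K9me3 had 9690 and 5621, with median widths of 30 and 45 kb. H3K4me3 covered 60.3 Mb ± 2.35 (SD, n = 2) and H3K9me3 546 Mb ± 90.1 (SD, n = 2). Gene ends took 37.0% ± 0.134 (SD, n = 2) of the H3K4me3 length and 2.22% ± 0.208 (SD, n = 2) of the H3K9me3 length. No library of one mark overlapped the other in these measures, but 2 against 2 cannot go below 0.333 in the exact two-sided permutation test, which is the value each gave. H3K4me3 was called in steps of 200 bp and H3K9me3 in steps of 3000 bp, and no 2 H3K9me3 islands lay closer than 24000 bp. A promoter free of H3K9me3 inside a wider domain is therefore not visible in these lists. The cell label was checked against gene lists: 22 of 24 Müller glia genes had H3K4me3 (all genes, 58.6%), Slc1a3, Glul, Rlbp1 and Sox9 among them, against 3 of 16 microglia and 3 of 14 endothelial genes. H3K4me3 was also at 13 of 13 cone, 14 of 16 bipolar, 13 of 16 neurogenic and 16 of 16 progenitor genes. It was at 12 of 20 ganglion, 8 of 13 amacrine and 3 of 6 horizontal cell genes, near the share of all genes. The counts thus do not single out Müller glia from cone, bipolar, neurogenic or progenitor genes. Rod genes had H3K4me3 as well (22 of 25), with islands of 11.8 and 11.4 kb at Nrl in Exp1 and Exp2 against 6.0 and 4.8 kb at Slc1a3. The part of other retinal cells in the results was not tested.

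Bases called H3K4me3 in both experiments lay mostly outside H3K9me3. The marks shared 3.05 Mb, which is 6.80% of the 44.8 Mb of H3K4me3 and 0.696% of the 438 Mb of H3K9me3. The product of the coverages on each chromosome would give 7.22 Mb, so the shared length was 0.423 times that product (log2 -1.24). Within single experiments the separation was smaller: 13.2% of H3K4me3 lay in H3K9me3 in Exp1 (log2 -0.76) and 17.2% in Exp2 (log2 -0.060).

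Both H3K4me3 and H3K9me3 called in a single experiment enter these wider shares. Held to the H3K9me3 called in both experiments, H3K4me3 called in 1 experiment only lay in H3K9me3 more than reproducible H3K4me3 did. Of the H3K4me3 bases called in Exp1 only, 23.7% lay in H3K9me3, and of those called in Exp2 only, 48.8%, which is 1.43 and 2.81 times the product of coverages. Among islands without an overlapping island in the other experiment, 388 in Exp1 and 2295 in Exp2 had at least 50% of their length in H3K9me3, and 356 and 1613 did not. The 2295 Exp2 islands reached a gene end in 3.22% of cases, against 22.6% of the 1613. In Exp1 the shares were 9.28% of the 388 and 14.0% of the 356. Of the 15278 Exp2 islands that overlapped an Exp1 island and had under 50% of their length in H3K9me3, 72.8% reached one.

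The deposited p-values followed the same order. Of the H3K4me3 islands with a p listed as 0, 1.27% in Exp1 and 1.31% in Exp2 had 50% or more of their length in H3K9me3. Above the 75th percentile of p the shares were 25.2% and 55%. The median p of islands found in both experiments was 1.19e-12 in Exp1 inside H3K9me3 and 2.66e-240 outside. With islands at or below the median p of each list, 1.08% of H3K4me3 lay in H3K9me3 (log2 -3.38). Reproducible islands inside H3K9me3 still numbered 947 in Exp1 and 983 in Exp2, and 32.0% and 30.3% of them reached a gene end.

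**Figure D1:**
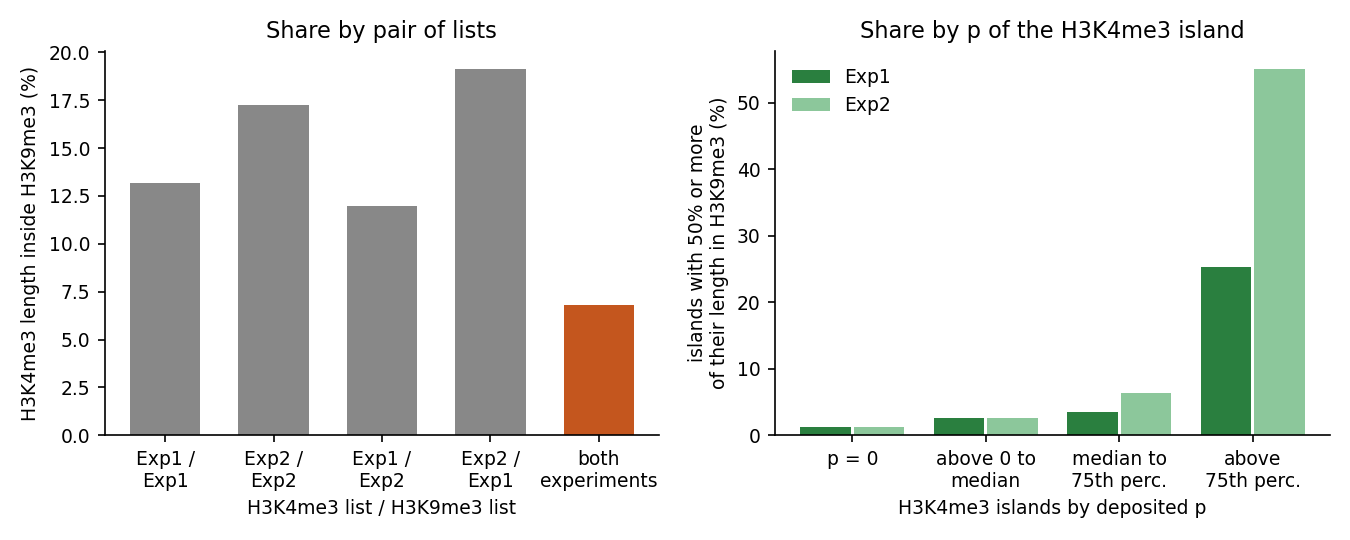
Left, percent of the H3K4me3 length inside H3K9me3 (y axis) for each pair of lists (grey) and for bases called in both experiments (orange). Right, percent of H3K4me3 islands with 50% or more of their length in H3K9me3 (y axis) by the deposited p (x axis) in Exp1 (dark) and Exp2 (light). On the left the lowest share of length was that of bases called in both experiments (6.80%), and on the right the highest shares of islands were those above the 75th percentile of p (25.2% and 55%).

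Across the borders of the 5989 H3K9me3 regions called in both experiments, H3K4me3 fell toward the border from outside and rose just inside. It covered 2.28% of bases over 100 kb outside, 1.32% at 30 to 100 kb, 0.971% at 10 to 30 kb, 0.727% at 3 to 10 kb and 0.416% within 3 kb. Inside, it covered 1.17% within 3 kb, 0.893% at 3 to 10 kb, 0.548% at 10 to 30 kb and 0.601% beyond 100 kb. Gene ends did not follow this step, covering 1.90% of bases within 3 kb outside and 1.11% within 3 kb inside. The step was present in each experiment's H3K4me3, from 0.615% to 2.38% in Exp1 and from 0.627% to 4.90% in Exp2. Only 636 regions (10.6%) held any shared base, and the regions without one summed to 322 Mb.

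**Figure D2:**
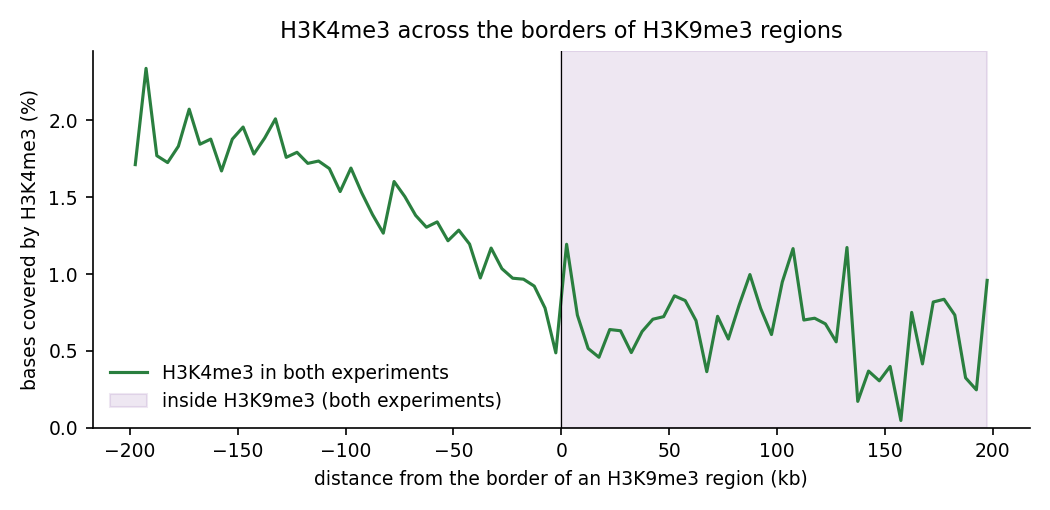
Percent of bases covered by H3K4me3 of both experiments (y axis) against distance from the nearest border of an H3K9me3 region (x axis, kb, bins of 5 kb, inside to the right and shaded). Coverage fell toward the border from outside and was higher in the first bins inside, and the far bins inside rest on little sequence.

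Part of the shared length lay in a few regions, some of them arrays of repeated genes. Of the 636 H3K9me3 regions with any shared length, the 10 with the most held 24.4% of it. The first, chr8:20493001-20712000, shared 188.6 kb around the predicted genes Gm21119 and Gm40469. The second, chr7:59346001-59808000, shared 97.2 kb and held 185 snoRNA genes within Snhg14, the imprinted host transcript of snoRNA clusters. The third, chr8:123537001-123639000, shared 87.8 kb over 48 genes of 5S ribosomal RNA, so that 48 of the 63 rRNA genes in the table carried both marks (76.2%). A 27-kb region at chr1:171060001-171087000 shared 22.6 kb over 15 tRNA genes beside Fcgr3, an Fc receptor gene of myeloid cells. Copies in such arrays are near-identical, the files do not say how reads with several matches were placed, and the marks of single members are uncertain. Without the 10 regions, 5.23% of H3K4me3 lay in H3K9me3 (log2 -1.59).

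Chromosomes differed in the share of H3K4me3 inside H3K9me3. It was highest on Y (95.2% of 0.0744 Mb), 17.8% on chromosome 8, 14.1% on X and 10.4% on chromosome 7, and it was 1.25% on chromosome 15 and 1.85% on chromosome 11. Single regions weighed on the high shares. On Y, chrY:90717001-90846000 shared 65.8 kb, and the chromosome 8 arrays above shared 188.6 and 87.8 kb. On X, chrX:169971001-170025000 shared 49.4 kb, and the snoRNA region on chromosome 7 shared 97.2 kb. Within each experiment X was above chromosome 8, with 26.4% against 23.7% in Exp1 and 49.1% against 24.1% in Exp2. Chromosome 15 had 4.55% in Exp1 and 9.19% in Exp2. Without the sex chromosomes the share over the genome was 6.43%.

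At gene ends, H3K4me3 was called at 12823 protein-coding genes (58.6%), H3K9me3 at 2931 (13.4%) and both at the same end at 316 (1.44%). A further 139 genes had the marks at different ends. Exp1 alone gave 507 genes with both marks (2.32%) and Exp2 alone 495 (2.26%). H3K9me3 without H3K4me3 was found at 2476 genes, and H3K4me3 without H3K9me3 at 12368. For 9 of the 316 the H3K9me3 island had a p above 0.05 in 1 or both experiments, and 5 of these were the class I histocompatibility genes H2-Q2, H2-Q4, H2-Q6, H2-Q7 and H2-Q10 in a single 165-kb island.

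Genes named Zfp were the largest named group among the 316, with 64 genes, or 20.3%, against 1.81% of all protein-coding genes. Another 13 were clustered protocadherins, 107 had only predicted names (Gm, LOC or Rik, as had 1893 of all 21887 genes) and 132 had other names. The 316 formed 230 runs along the chromosomes when genes adjacent in the table were joined, and 143 genes lay in 57 runs of 2 or more. Chromosome 14 held 38 of them, or 4.47% of its genes, and chromosome 11 held 6, or 0.373%. Most of the 38 were predicted genes, from Gm2897 to Gm38418, between positions 3000001 and 7734000 of chromosome 14. That share thus rests largely on a single stretch. The ends with both marks lay a median of 24.8 kb inside the H3K9me3 border, taking the smaller of the 2 experiments: 102 lay over 100 kb inside, and 47 within 3 kb of the border or outside it.

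The longest run had 6 genes at chr17:17005116-17319585: Gm51425, Zfp960, Zfp97, Gm38396, Gm5165 and Gm6712. At Zfp97 the H3K4me3 island was 4.6 kb in Exp1 and 2.0 kb in Exp2, 245.9 kb inside H3K9me3 islands of 525 and 522 kb. Each of the 6 genes had its own narrow H3K4me3 island at an end, within 1 H3K9me3 island. Runs of 5 genes held Zfp433 and Zfp938 on chromosome 10 and Zfp932 on chromosome 5. The gene farthest inside heterochromatin was Gm5784, a predicted gene 1622 kb from the border of a 3351-kb island, with H3K4me3 of 4.6 and 2.8 kb.

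**Figure D3:**
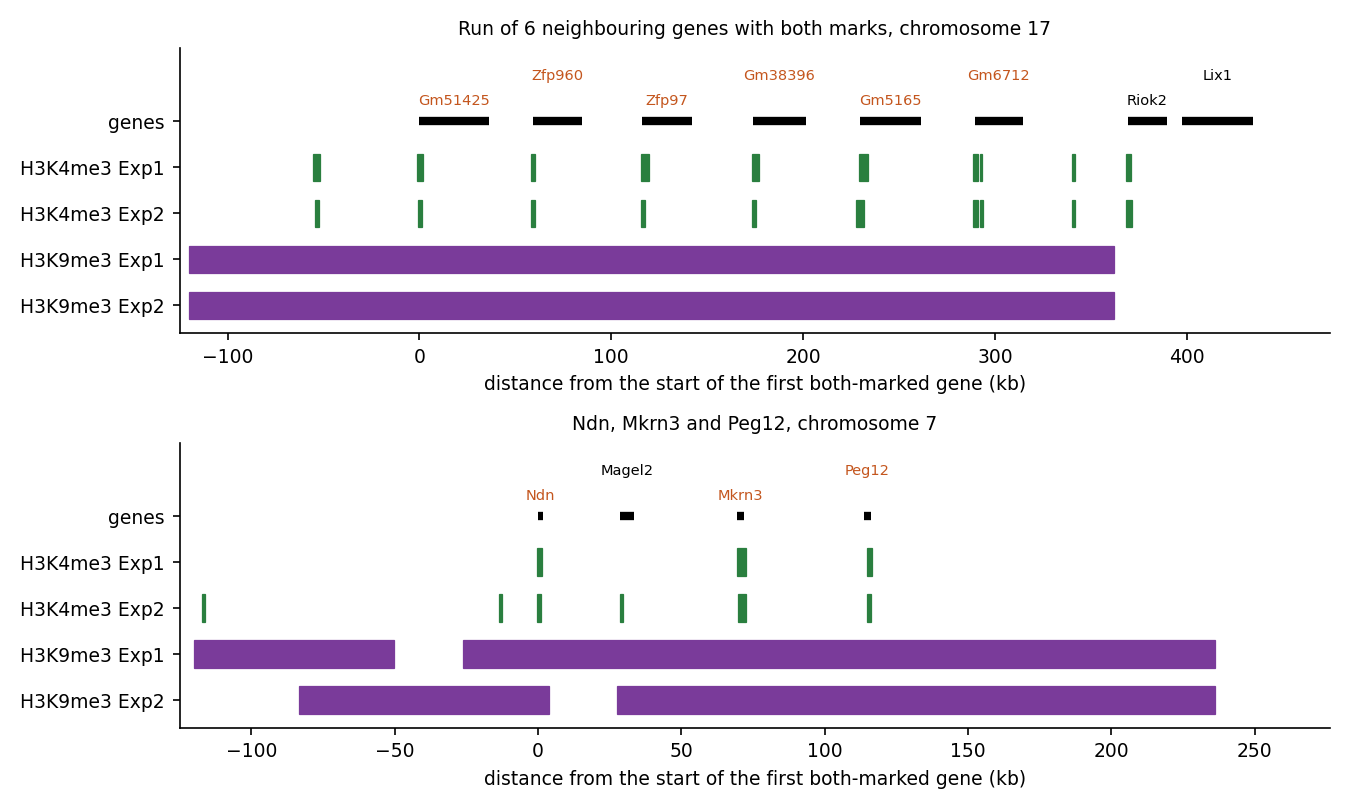
Islands of H3K4me3 (green) and H3K9me3 (purple) in each experiment, and protein-coding genes (black bars, both-marked names in orange), against distance in kb from the start of the first both-marked gene. Top, the run of 6 genes on chromosome 17, where each gene has a narrow H3K4me3 island at an end inside 1 H3K9me3 island, and bottom, Ndn, Mkrn3 and Peg12 on chromosome 7. Islands are cut 120 kb from the genes shown.

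Zfp genes encode zinc finger proteins, many with a KRAB domain that recruits Trim28, though the table does not say which. Of 397, H3K4me3 was called at 338 (85.1%), H3K9me3 at 115 (29.0%) and both at the same end at 64 (16.1%). Among all genes the shares were 58.6%, 13.4% and 1.44%. Both marks were at 84 Zfp genes in Exp1 and 70 in Exp2, against 2.32% and 2.26% of all genes. Named in alphabetical order, the first with both were Zfp110, Zfp120, Zfp141, Zfp157 and Zfp2. Zfp110 had H3K4me3 of 3.6 and 3.2 kb in H3K9me3 of 75 and 60 kb, Zfp120 had 2.8 and 2.0 kb in 522 and 522 kb, and Zfp141 had 2.6 and 1.6 kb in 1638 and 1626 kb. Zfp1, Zfp101, Zfp105 and Zfp106 had H3K4me3 alone.

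Zfp genes with and without Zfp neighbours differed in H3K9me3 and hardly in H3K4me3, as counts without a test. Of the 151 with no other Zfp gene within 250 kb, 14.6% had H3K9me3 and 83.4% H3K4me3. With 1 to 3 neighbours (101 genes) the shares were 46.5% and 85.1%, and with 4 or more (145 genes) 31.7% and 86.9%. The 2 ends of a gene also differed. H3K4me3 at the transcription start was called at 57.3% of all genes with a start in the table. Among 280 Zfp genes with H3K4me3 at the transcription start, 22 had H3K9me3 at the other end only, 7 at the start only, 48 at both ends and 203 at neither. Among 9749 other genes with H3K4me3 at the start the numbers were 87, 41, 142 and 9479, so H3K9me3 reached 27.5% of the Zfp genes and 2.77% of the others.

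The clustered protocadherins, cell-surface proteins that give neurons distinct identities by choice among alternative promoters, lay in H3K9me3 as a block. H3K9me3 was at 12 of 14 genes of the alpha cluster, 22 of 22 of the beta cluster and 18 of 21 of the gamma cluster, the same numbers in each experiment. Among all genes 13.4% had H3K9me3 in both experiments. H3K4me3 was at 3 alpha, 4 beta and 21 gamma genes in both experiments (all genes, 58.6%). The alpha and beta counts differed between experiments, with H3K4me3 at 3 and 4 genes in Exp1 and at 8 and 7 in Exp2. In Exp1 both marks shared an end at 1 alpha, 4 beta and 8 gamma genes (all genes, 2.32%). In Exp2 they did so at 6, 7 and 11 (all genes, 2.26%). In both experiments they shared an end at Pcdha12, at Pcdhb1, Pcdhb9, Pcdhb11 and Pcdhb19, and at 8 gamma genes, with H3K4me3 of 1.0 to 3.6 kb in Exp1 at those named by the rule. The gamma genes share their last exons in one annotated end, so H3K4me3 there marks several genes at once. Their 21 of 21 is therefore not a count of separate islands.

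Of 39 imprinted genes, 23 had H3K4me3 (59.0%, all genes 58.6%) and 5 had H3K9me3 (12.8%, all genes 13.4%), both shares near the background. Both marks were at the same end of 3 in both experiments (7.69%, all genes 1.44%), and of 4 in Exp1 and 5 in Exp2. The 3 were Ndn, Mkrn3 and Peg12, paternally expressed neighbours in the region of mouse chromosome 7 that matches the Prader-Willi locus. Ndn (chr7:62348277-62349928) had H3K4me3 of 1.6 kb in each experiment, in H3K9me3 islands that measured 585 kb (Exp1) and 87 kb (Exp2). Mkrn3 had 3.0 and 2.8 kb, and Peg12 1.8 and 1.6 kb, both in H3K9me3 of 585 and 531 kb. Magel2 between them had H3K9me3 and, in Exp2 only, a 1.0-kb H3K4me3 island, and Peg3 on the same chromosome had H3K4me3 of 9.0 and 6.0 kb without H3K9me3. Snurf, a paternally expressed gene of the same region outside the list and chosen after its values were seen, also had both marks, with H3K4me3 of 3.4 and 4.4 kb in H3K9me3 of 1905 and 84 kb. The lists do not separate the parental alleles.

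Both marks were at 2 of 16 neurogenic genes, 1 of 13 cone, 1 of 16 bipolar and 1 of 20 ganglion cell genes, with Isl1 on both of the last, and at none of the Müller glia, progenitor, rod, amacrine and horizontal cell lists, against 1.44% of all genes. Atoh7 (chr10:63099785-63101280) had H3K4me3 of 1.4 and 1.0 kb beside an H3K9me3 island of 9 kb in each experiment, whose border lay 0.721 kb outside the gene end. Isl1, a LIM homeobox factor of bipolar and ganglion cells (chr13:116298270-116309688), had one of the widest H3K4me3 islands of the 316, 18 and 16 kb, which reached into H3K9me3 islands of 84 and 90 kb. The H3K9me3 region called there in both experiments held 7.0 kb of H3K4me3 in Exp1 and 7.2 kb in Exp2, so most of each island lay outside it. Olig1 had H3K4me3 of 2.8 and 2.2 kb in H3K9me3 of 84 and 75 kb, and its neighbour Olig2 was in the same H3K9me3 without H3K4me3. Cngb3, a cone channel subunit, had H3K4me3 of 4.0 and 2.0 kb in H3K9me3 of 27 and 36 kb. Grm6, the glutamate receptor of ON bipolar cells, had the marks at different ends. Prdm13, an amacrine cell factor chosen after its values were seen, had H3K4me3 of 8.4 and 3.6 kb in H3K9me3 of 63 kb in each experiment.

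Some both-marked genes had H3K4me3 far wider than the medians of all 316, which were 3.0 kb in Exp1 and 2.4 kb in Exp2. Gm21119 had 130 and 144.8 kb, Gas8, next to the 5S array, 87.2 and 87.2 kb, Mid1 50.2 and 49.6 kb, Fcgr3 23.0 and 22.6 kb and Hjurp 20.8 and 21.6 kb. The first 4 lie in or next to the arrays described above or in the X region that holds Mid1 and Erdr1 (chrX:169971001-170025000). Trim5, Trim12a and Trim12c, antiviral factor genes in a tandem cluster, had H3K4me3 of 1.0 to 2.8 kb in H3K9me3 islands that measured 327 and 120 kb.

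Genes with both marks stood between the single-mark classes in their other features. H3K27me3, the Polycomb mark, was at 74.4% of the 316, at 9.30% of genes with H3K4me3 alone and at 86.6% of genes with H3K9me3 alone, against 23.3% of all genes. By kind it was at 56.3% of the Zfp genes, 100% of the protocadherins, 90.7% of the predicted genes and 67.4% of the rest. H3K4me1, found at enhancers and promoter flanks, was at 61.1%, 84.1% and 1.49% of the 3 classes, against 54.6% of all genes. H3K27me3 was called in steps of 5000 bp, which joins neighbouring genes as for H3K9me3.

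Promoter CpG followed the same order. Over the 300-base RefSeq window (250 before and 50 after the start), the median was 12 CpG for 252 genes with both marks, 22 for genes with H3K4me3 alone and 2 for genes with H3K9me3 alone. Among Zfp genes the medians were 10.5, 17 and 5.5. In that window the promoters shown above had 17 at Glul, 15 at Zfp110, 11 at Ndn and Atoh7, 2 at Vmn1r100 and 1 at Trim12a. The table holds no chromosome 18, so these medians are for genes elsewhere, of which 85.1% of the both-marked had a promoter. Of those 252 genes, 238 had both marks at the transcription start and 14 only at the other end.

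**Figure D4:**
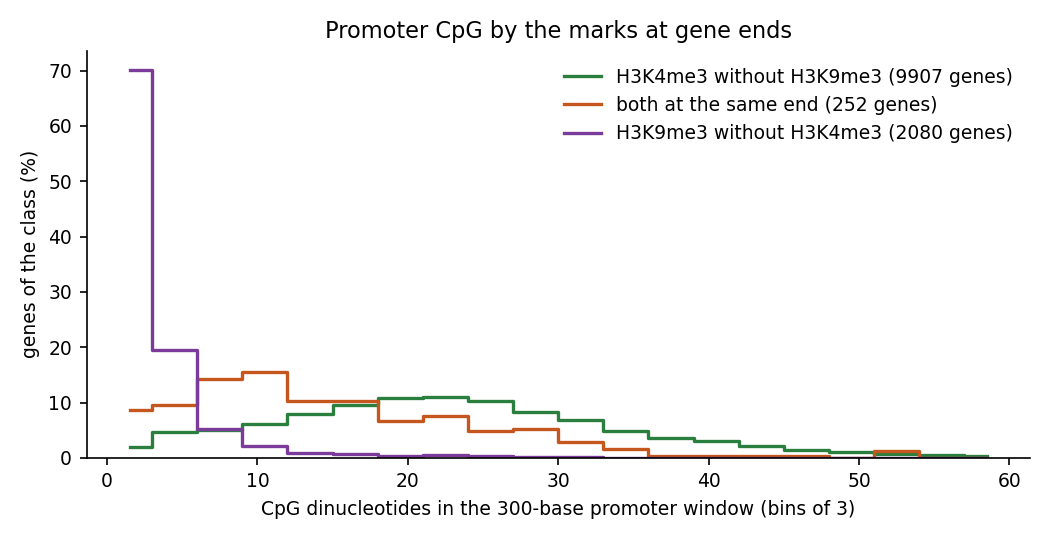
Percent of genes in each class (y axis) by the number of CpG dinucleotides in the 300-base promoter window (x axis, bins of 3, values above 60 in the last bin). Genes with both marks (orange, median 12) lie between genes with H3K9me3 alone (purple, median 2) and H3K4me3 alone (green, median 22).

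Families that escaped H3K9me3 were sought among 102 groups of 20 or more genes sharing a symbol stem, such as Krt or Polr. In 42 groups, with 1426 genes, no member had H3K9me3 at an end in both experiments, against 13.4% of all genes, and in 20 groups no member had it in either experiment, against 18.2% of all genes. The groups were picked for having no such member, so their contrast with all genes is fixed by that choice. In 38 of the 42, at least 50% of members had H3K4me3. Among all genes with H3K4me3 at the transcription start, 3.46% had H3K9me3 at an end. In a small group rich in H3K4me3, no member with H3K9me3 is therefore near that share. H3K4me3 was at 49 of 49 Mrpl and 29 of 29 Mrps genes of the mitochondrial ribosome, 28 of 28 Polr genes of the RNA polymerases, 54 of 56 Eif genes of translation initiation, 66 of 83 Rnf genes and 38 of 41 Zbtb genes, all without H3K9me3 in either experiment. Zbtb genes also encode zinc finger proteins, with a BTB domain.

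The other 4 groups lacked H3K9me3 with little H3K4me3. Keratins (Krt), of epithelia, had H3K4me3 at 5 of 53 genes and H3K9me3 at none in either experiment. Collagens (Col) had H3K4me3 at 14 of 44 and H3K9me3 at none in either. Late cornified envelope genes (Lce) had neither mark in both experiments at any of 21, with H3K9me3 at 4 in 1 experiment, and Pla genes had H3K4me3 at 8 of 21. The 15 trace amine receptors also had neither mark in either experiment. By contrast H3K9me3 was at 613 of 1110 olfactory receptors, 186 of 230 vomeronasal type 1 receptors, 113 of 123 vomeronasal type 2 receptors, 28 of 28 alpha-defensins (Defa), 42 of 47 Pramel genes and 49 of 99 cytochromes P450. Among all genes the share with H3K9me3 was 13.4%. In both experiments H3K4me3 was called at 1 gene in each of the 3 receptor families, and both marks at Olfr1033 and Vmn2r29. The shares of all genes were 58.6% and 1.44%. Taken singly, Exp1 had H3K4me3 at 14 vomeronasal type 1 receptors, 13 of them with both marks, and Exp2 had it at 3, of which 2 had both.

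Hox genes could not be placed. The 39 Hox genes had H3K9me3 at 39 in Exp1 and at none in Exp2, where 16.7% and 14.8% of all genes had it. They count as unmarked only because the rule asks for H3K9me3 in both experiments. H3K27me3 was at all 39 (all genes, 23.3%). The 6 Dlx genes had H3K27me3 at all 6 and H3K9me3 at none in either.

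Lists of retinal genes held few members with H3K9me3. With 6 to 25 genes each, they are too short to show a difference from all genes or between cell types. H3K9me3 was at 3 of 16 neurogenic genes and 3 of 16 bipolar genes (18.8% each, against 13.4% of all genes). It was at 1 of 13 cone, 1 of 13 amacrine and 1 of 20 ganglion cell genes, and none of 6 horizontal cell genes. All 16 retinal progenitor genes, Rax, Six3, Six6 and Pax6 among them, had H3K4me3, and none had H3K9me3 in either experiment. The 25 rod genes, Nrl among them, had none in either experiment. Among 24 Müller glia genes only Abca8a had H3K9me3, and it lacked H3K4me3. Of 27 genes of the H3K9 methylation machinery, 26 had H3K4me3 and none had H3K9me3 in both experiments, though 2 had it in Exp2, and Setdb1 and Trim28 had H3K4me3 alone, of 2.0 and 1.6 kb and of 4.0 and 4.0 kb. Housekeeping genes had H3K4me3 at 19 of 20 and H3K9me3 at none in either. Among pigment epithelium genes Rpe65 and Mlana had H3K9me3 alone.

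**Figure D5:**
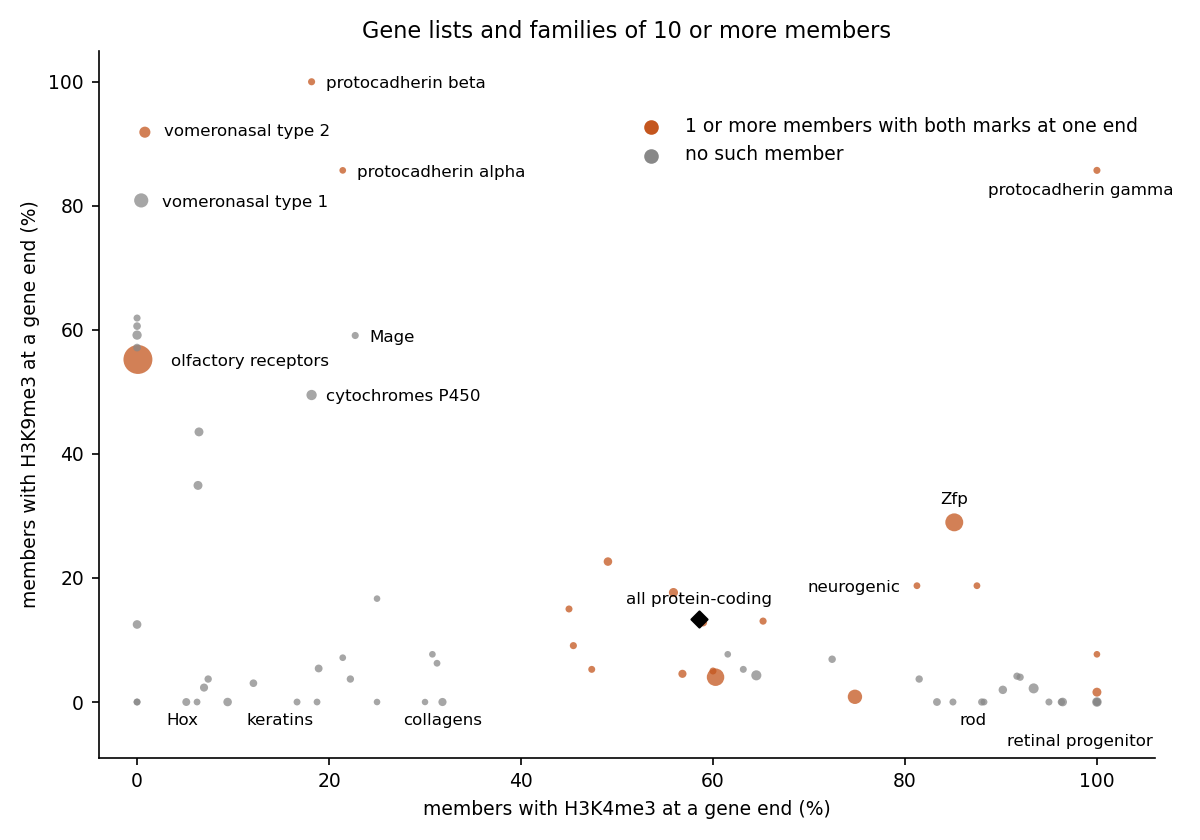
Percent of members with H3K9me3 (y axis) against percent with H3K4me3 (x axis) at a gene end in both experiments, for lists and families of 10 or more genes; point size grows with the number of members, orange marks those with a gene carrying both at one end, and the diamond is all protein-coding genes (58.6% and 13.4%). Zfp genes (85.1% and 29.0%) have high shares of both marks. Protocadherin gamma genes do too, but H3K4me3 at their shared annotated end counts for several genes at once. Both marks were at the same end of 8 of these 21 genes.

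Wide H3K4me3 was also found close to H3K9me3 at genes with no H3K9me3 at their ends. Of the 100 genes with H3K4me3 that lay nearest H3K9me3 without having it, Pdc had the widest H3K4me3. It encodes phosducin, which binds transducin subunits in photoreceptors, and its islands of 22 and 15 kb lay at a gene whose end was 2.09 kb from H3K9me3. Herc3 had 14.8 and 9.2 kb at 4.46 kb, Thada 8.4 and 8.4 kb at 1.25 kb, and Sfpq, a splicing factor, 5.6 and 6.6 kb at 3.72 kb. These distances are near the 3000-bp step of the H3K9me3 lists.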

How the data were processed

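ChIP-seq libraries of H3K4me3 and H3K9me3 from Glast+ retinal cells, with chromatin of 25000 cells per precipitation, were grouped by mark, with the experiment number as replicate. The 2 input libraries were not used here. The authors deposited 1 list of islands per library, each with a position and a p-value. The settings of the island caller, its control, and whether the value is a p or a q are not given here by any source used. Per the submitters' processing notes, the build was mm10 and the tools were SICER, BWA 0.7.5a, bedtools 2.17, SAMtools 1.3.1 and FastQC. Without read counts in the files the depth is unknown, and intervals that need it are left out.

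Islands were laid on bins of 200 bp, with the first 3 Mb of each chromosome left out (python 3.11.15, numpy 2.4.6, pandas 2.3.3). Gene ends came from a RefSeq table (GRCm38.p6) that has no strand, and starts from its promoter table, which matched 17492 of 21887 genes. An overlap of 1 bp or more within 1 kb of an end counted. Genes were named by rule: a fixed set, of which 1 is not reported here, the both-marked genes with the widest and narrowest H3K4me3, farthest inside or in the widest H3K9me3, the longest runs, the first members of each list, and wide H3K4me3 nearest H3K9me3. Families and symbol lists were chosen with earlier results of these data known, and 2 were respelled to the table's newer symbols. The lists did not match 3 symbols. The gene-end step was tested on simulated data. Alternatives were each experiment alone, either experiment, a p at or below the median, trimmed H3K9me3 islands, no sex chromosomes, other windows, only transcription starts, isolated genes and a replicate block.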

Additional observations from a re-analysis of the deposited data

How the results depend on the processing

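The share of H3K4me3 inside H3K9me3, 6.80% (log2 -1.24), ranged from 13.2% to 17.2% and from -0.76 to -0.060 with 1 experiment left out. It was 21.3% (-0.18) for either experiment, 12.0% (-0.57) and 19.1% (-0.24) for crossed pairs of lists, and 1.08% (-3.38) at or below the median p. The log2 value was below 0 throughout, also with trimmed islands and without sex chromosomes. In Exp2 alone, however, the shared length was 0.959 times the product of coverages, so hardly any separation was seen there. With a replicate block, the mean of the values found within experiments, the share was 15.2% (-0.41). Whether the experiment numbers pair the 2 marks is not in the labels. The Exp1 minus Exp2 differences of the marks had r = -0.002 over 43774 gene ends. That value cannot decide it, because most genes had the same call in both experiments. H3K4me3, for example, was at 13035 genes in Exp1, 13261 in Exp2 and 12823 in both.

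The count of genes with both marks, 316, was 495 to 507 with 1 experiment left out, 702 for either, 71 at or below the median p, 209 without predicted names, 311 under the replicate block, and 225 to 367 under the other alternatives. Groups without H3K9me3, 42, numbered 27 to 34 with 1 experiment left out, 20 for either and for the block, and 7 of only 36 groups when genes within 5 kb of another were left out. H3K27me3 at both-marked genes, 74.4%, was 73.1% to 82.1% with 1 experiment left out, 81.5% for either, 59.2% at or below the median p and 66.0% without predicted names. Median promoter CpG, 12, was 11 to 12 with 1 experiment left out, 11 for either experiment, at or below the median p, with trimmed islands and for isolated genes, and 13 with 50% of the window covered or without predicted names. Leaving out predicted names and the 10 regions was chosen after seeing the data. The causes were not tested. Of 174 values of single families, 134 moved by no more than the spread between experiments. That count does not measure stability. It includes families with the same share in every setting, such as keratins (0%) and beta protocadherins (100%), and Hox genes, whose spread was 70.7. H3K9me3 at Zfp genes, 29.0%, was 34.8% in Exp1, 30.5% in Exp2 and 36.3% for either experiment.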
